A study of Mus musculus with 13 samples.

Results

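The genes described here are 10 members of the AP-1 transcription factor family and of the immediate early gene group: Jun, Junb, Jund, Fos, Fosb, Fosl1, Fosl2, Atf3, Egr1 and Ier3. They were taken by symbol from a table of read counts for 38279 gene symbols, and all 10 symbols were present. Levels were compared between 6 mammary tumours from Cre-positive mice and 4 whole glands that the labels call WT, from Cre-negative mice. The mice of both groups had been mated at 12 weeks of age, which in Cre-positive mice set off the excision of Fbxw7. At collection the ages were 25, 32, 39, 19, 53 and 25 weeks for tumours 1 to 6, 20 weeks for glands 1 to 3 and 40 weeks for gland 4. Genotype, tissue state and, in part, age differ between the groups together and cannot be told apart. The labels name neither the promoter that drives Cre nor the excised exons, and whether every library is a separate animal is not spelled out, so a p-value speaks only of the variation among these libraries. Purified epithelium, also part of the series with 3 samples, was not analysed here.

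AP-1 is a dimer of basic leucine zipper proteins. Jun, Junb and Jund can pair with each other or with Fos, Fosb, Fosl1 or Fosl2, whereas Fos proteins do not form stable homodimers, and Atf3 is a related leucine zipper protein that can bind Jun proteins. Many of these genes, with the zinc finger gene Egr1 and the survival-associated gene Ier3, are immediate early genes: their transcripts appear within minutes of a growth factor, stress or wounding signal without new protein synthesis and decay quickly. Fbxw7, the substrate receptor of an SCF ubiquitin ligase, binds phosphorylated Jun protein and marks it for degradation, a step that acts on protein and is not read by RNA counts.

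Total counts per library ran from 13723065 (gland 3) to 48353114 (gland 2). Several libraries carried transcripts of other tissues. Salivary markers on a fixed list made up 52.5% of tumour 1 and 19.2% of tumour 6 by counts, and at most 0.0529% of any other library, while skeletal muscle markers took 8.43% and mitochondrial transcripts 37.5% of gland 4. Luminal epithelial markers summed to 1752 to 4084 CPM in tumours and 458 to 766 CPM in glands, and adipocyte markers to 16.3 to 1495 CPM in tumours and 7866 to 40766 CPM in glands. CPM here are read counts scaled to library size and by trimmed mean of M-values (TMM) factors. T and NK cell markers summed to 382 and 304 CPM in glands 2 and 3, against 16.4 and 1.97 CPM in glands 1 and 4. B cell markers summed to 332 and 346 CPM in glands 2 and 3, against 11.2 and 1.91 CPM in glands 1 and 4. In tumours these sums were 3.57 to 63.8 CPM and 4.21 to 58.5 CPM. The part of lymphoid transcripts in the levels of the 10 genes was not tested. In bulk tissue, fewer cells of a type and less RNA per cell cannot be told apart.

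Of the 10 genes, 9 had enough counts to be tested and Fosl1 did not. Ier3 was higher in tumours and no other gene passed (edgeR quasi-likelihood test, two-sided, Benjamini-Hochberg adjusted p below 0.05 over 20101 genes). Over all tested genes 15.1% were called in either direction, so 1 of 9 is close to the background and is no result about these genes as a set. At an unadjusted p below 0.05, a level that 33.4% of all tested genes reached, 2 of the 9 were found, Ier3 and Fos. The median log2 fold change of the 9 tested genes was 0.66, and that of all tested genes was 0.17.

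**Figure D1:**
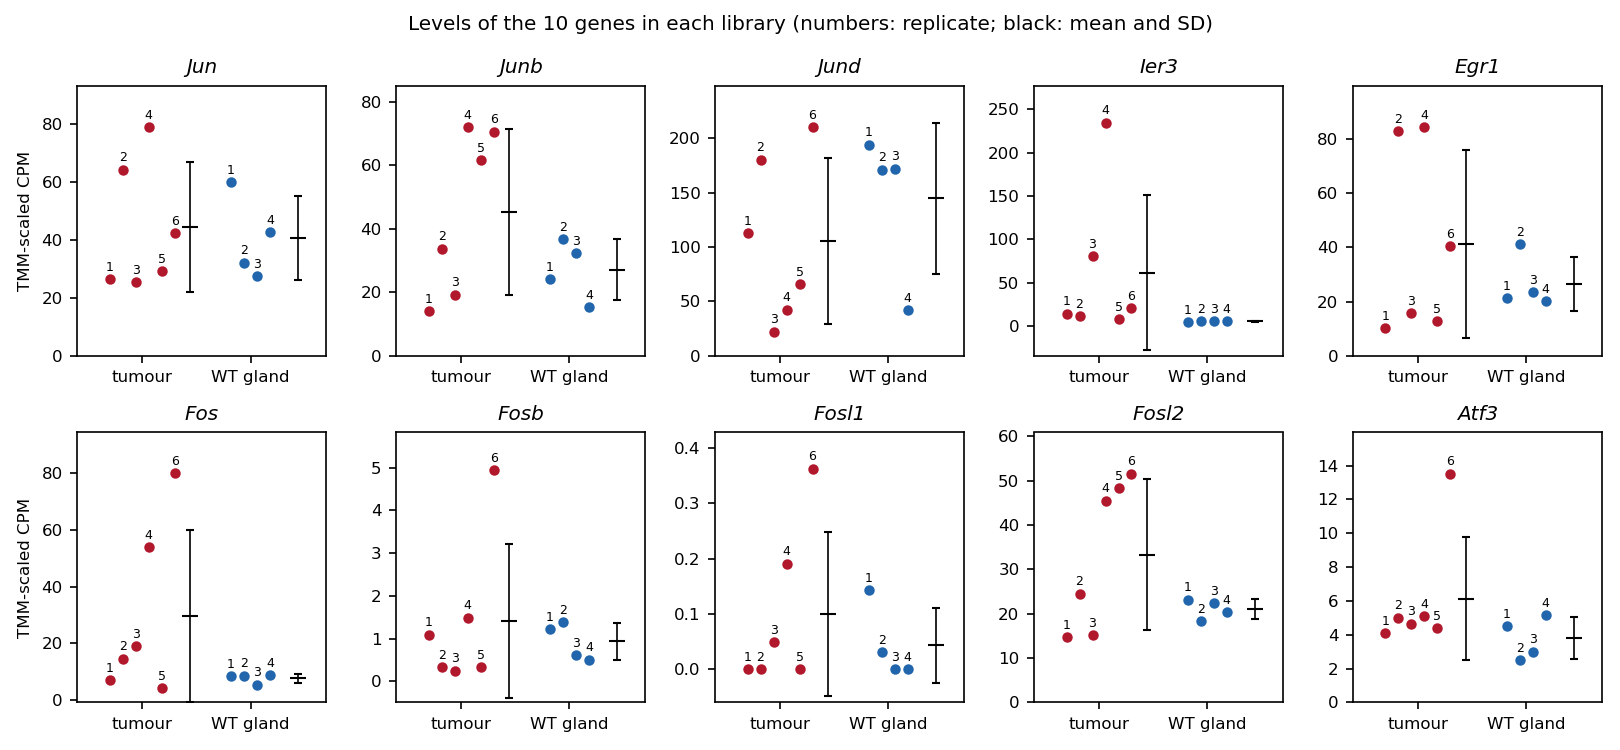
TMM-scaled CPM (vertical axis, 1 linear scale per gene) of the 10 genes in each of 6 tumours (red) and 4 wild-type glands (blue), with the replicate number above each point and the mean and SD in black. Tumours 4 and 6 hold the highest tumour value of every gene, and only for Ier3 do all 6 tumours lie above all 4 glands.

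RefSeq promoter windows, from 250 bases before to 50 bases after the annotated start, were found for 8 of the 10 genes in build GRCm38.p6, and Egr1 and Fosl1 had no entry. Those of 3 genes are shown because the results turn on them: Ier3, the gene that passed the test, Fos, the next largest difference, and Jun, whose protein the Fbxw7 ligase recognises. Each is written 5′ to 3′ on the strand of its gene, with matches to the motifs named below in capitals.
Ier3 (chr17:35821463-35821762, plus strand): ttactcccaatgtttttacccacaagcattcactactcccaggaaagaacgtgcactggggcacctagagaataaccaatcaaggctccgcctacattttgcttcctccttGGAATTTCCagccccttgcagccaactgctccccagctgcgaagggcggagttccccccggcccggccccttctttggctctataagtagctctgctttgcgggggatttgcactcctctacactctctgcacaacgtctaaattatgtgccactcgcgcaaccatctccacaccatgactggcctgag
Fos (chr12:85473640-85473939, plus strand): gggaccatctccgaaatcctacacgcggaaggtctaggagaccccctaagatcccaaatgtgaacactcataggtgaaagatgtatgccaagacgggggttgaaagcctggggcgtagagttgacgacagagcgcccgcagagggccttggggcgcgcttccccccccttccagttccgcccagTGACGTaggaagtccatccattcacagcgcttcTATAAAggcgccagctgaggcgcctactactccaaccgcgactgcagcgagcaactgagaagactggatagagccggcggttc
Jun (chr4:95052173-95052472, minus strand): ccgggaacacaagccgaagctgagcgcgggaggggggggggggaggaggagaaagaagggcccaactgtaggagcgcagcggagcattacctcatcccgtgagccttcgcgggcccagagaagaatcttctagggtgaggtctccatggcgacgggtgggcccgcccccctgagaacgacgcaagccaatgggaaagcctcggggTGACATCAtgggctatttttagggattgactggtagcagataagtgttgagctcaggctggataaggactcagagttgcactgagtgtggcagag

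Motifs were searched on both strands, and TGACGT lies within TGACGTCA. The Jun window holds TGACATCA, the AP-1-like element known from the Jun promoter, at positions -45 to -38 from the annotated start, and 3.62% of 32851 RefSeq windows hold these letters. The Fos window holds TGACGT, the core of a cyclic AMP response element, at -66 to -61 and TATAAA at -33 to -28. These occur in 7.51% and 13.6% of all windows. In the Ier3 window GGAATTTCC, a sequence of the kind bound by NF-kappa-B, lies at -139 to -131. It was added to the search after that window had been read, and 0.317% of all windows hold it. The canonical AP-1 letters TGANTCA, present in 7.81% of all windows, the full element TGACGTCA and the CArG box of serum response factor (1.79% and 1.63% of windows) were not found in any of the 8 windows. Sequence more than 250 bases before a start was not searched, nor was any of Egr1 or Fosl1, so elements there are not covered. The Atf3 window holds TGACGT at -8 to -3 on the strand opposite to the gene. The Junb window holds TATAAA at 1 to 6 on the strand of the gene, a place after its annotated start.

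Jun, the founding member of the Jun family and an activator of proliferation genes, did not differ between the groups beyond the spread between libraries. It was at 26.6, 64.4, 25.6, 79.0, 29.2 and 42.3 CPM in tumours 1 to 6, against 60.1, 32.2, 27.6 and 42.8 CPM in glands 1 to 4. Tumours 2 and 4 lay above every gland, tumours 1 and 3 below every gland, and the other two among the glands. The log2 fold change was 0.13 ± 0.39 (SE; adjusted p = 0.833, edgeR), with a 95% interval of -0.73 to 0.99 before adjustment. Its sign was negative without tumour 4 (-0.098) or gland 3 (-0.025). An antisense gene, Junos, overlaps Jun, and the labels do not state strand-specific counting, so reads of the pair may not be separated.

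Junb, a Jun relative that is itself an early response gene and can restrain Jun, was at 14.1, 33.8, 19.3, 72.0, 61.7 and 70.6 CPM in tumours, against 24.3, 36.8, 32.4 and 15.3 CPM in glands. Tumours 4, 5 and 6 stood above all glands and tumour 1 below all of them. The difference did not pass (log2 fold change 0.73 ± 0.49, SE; adjusted p = 0.308, edgeR). Exons of Prdx2 on the opposite strand overlap Junb.

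Jund, the family member that is expressed in resting cells and depends least on stimulation, was the only one of the 9 with a negative estimate. It was at 113, 180, 22.2, 42.5, 66.1 and 210 CPM in tumours, against 194, 171, 172 and 42.2 CPM in glands. Tumour 6 lay above every gland and tumour 3 below, and gland 4, the gland rich in muscle and mitochondrial transcripts, lay far under the other glands. The log2 fold change was -0.46 ± 0.61 (SE; adjusted p = 0.618, edgeR), and with age as a covariate it was 0.027. Without gland 4 it was -0.83 (adjusted p = 0.343). The unnamed gene model Gm11175 overlaps Jund on the opposite strand.

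Fos, the Jun partner most used as a marker of recent stimulation, averaged 29.7 ± 30.4 CPM in tumours (SD, n = 6) and 7.76 ± 1.58 CPM in glands (SD, n = 4). Single libraries held 6.92, 14.5, 18.9, 53.8, 4.20 and 79.9 CPM in tumours 1 to 6, against 8.30, 8.55, 5.40 and 8.77 CPM in glands 1 to 4. Tumours 2, 3, 4 and 6 were above every gland, tumour 1 was among the glands and tumour 5 was below them all. The log2 fold change was 1.94 ± 0.77 (SE; unadjusted p = 0.0275, adjusted p = 0.106, edgeR), so Fos did not pass. DESeq2 placed it just under the threshold, at 1.90 (adjusted p = 0.0496, where 21.2% of genes with an adjusted p were called), and limma-voom at 1.27 (adjusted p = 0.314, where 15.3% of genes were called). Over all alternatives of the edgeR fit, the DESeq2 and the limma-voom fit, the adjusted p ran from 0.0496 to 0.314. Tumours 4 and 6 set much of the estimate, which was 1.69 without tumour 4 and 1.31 without tumour 6.

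Fosb, a Fos paralog with a similar early response, was low. It was at 1.10, 0.333, 0.247, 1.49, 0.335 and 4.93 CPM in tumours, against 1.23, 1.39, 0.613 and 0.509 CPM in glands. Tumours 4 and 6 lay above all glands and tumours 2, 3 and 5 below all of them. The log2 fold change of 0.57 ± 0.86 (SE; adjusted p = 0.658, edgeR) rested on tumour 6 and was -0.51 without it.

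Fosl1 encodes Fra-1, which has no transactivation domain of the Fos type and is known as an AP-1 subunit of invasive carcinoma cells. Only 26 counts in all 6 tumours and 7 counts in all 4 glands fell on it, too few for the test. Counts were 0, 0, 2, 11, 0 and 13 in tumours 1 to 6, against 5, 2, 0 and 0 in glands 1 to 4. In the libraries with 0 counts, levels of up to 0.206 CPM (tumour 1), 0.0454 CPM (tumour 2), 0.0558 CPM (tumour 5), 0.167 CPM (gland 3) and 0.191 CPM (gland 4), the worth of 3 counts, are allowed by a count of 0, a limit for counting error alone. Ccdc85b overlaps Fosl1 on the opposite strand and is among the gene symbols counted, so reads of this pair may not be separated either.

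Fosl2 encodes Fra-2, the other Fos relative without such a domain, and was the Fos family member with the most even level in glands. It was at 14.7, 24.5, 15.2, 45.5, 48.3 and 51.6 CPM in tumours, against 23.2, 18.3, 22.4 and 20.3 CPM in glands. Tumours 2, 4, 5 and 6 lay above all glands and tumours 1 and 3 below all of them, so no tumour was inside the narrow gland range. The difference did not pass (log2 fold change 0.66 ± 0.41, SE; adjusted p = 0.268, edgeR).

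Atf3, a stress-induced leucine zipper factor that often represses, was at 4.11, 5.01, 4.65, 5.11, 4.39 and 13.5 CPM in tumours, against 4.51, 2.51, 3.01 and 5.15 CPM in glands. Tumour 6 stood alone and the other 5 tumours lay within the gland range. The log2 fold change was 0.69 ± 0.45 (SE; adjusted p = 0.295, edgeR), and 0.26 without tumour 6.

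Egr1, a zinc finger factor induced through serum response factor, was at 10.1, 82.9, 15.9, 84.3, 12.9 and 40.5 CPM in tumours, against 21.3, 41.1, 23.4 and 20.2 CPM in glands. Tumours 2 and 4 were above all glands, tumours 1, 3 and 5 below all of them, and tumour 6 just under gland 2. No difference in mean level passed (log2 fold change 0.63 ± 0.63, SE; adjusted p = 0.491, edgeR).

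Ier3, also called IEX-1, encodes a small membrane-associated protein that is linked to cell survival and to ERK signalling. It averaged 61.5 ± 89.2 CPM in tumours (SD, n = 6) and 5.26 ± 0.729 CPM in glands (SD, n = 4). Single libraries held 14.0, 11.0, 80.7, 235, 7.52 and 20.8 CPM in tumours 1 to 6, against 4.17, 5.59, 5.68 and 5.60 CPM in glands 1 to 4. All 6 tumours were above all 4 glands, with tumour 4 far above the rest and tumour 5 closest to the glands. Ier3 was the only one of the 9 tested genes whose groups did not overlap, whereas 14% of all tested genes had groups that did not overlap and 6.54% had all tumours above all glands. The log2 fold change was 3.55 ± 1.03 (SE; adjusted p = 0.0408, edgeR). The call did not survive the removal of tumour 3, of tumour 4 or of any single gland (highest adjusted p = 0.117), nor the use of limma-voom (log2 fold change 2.46, adjusted p = 0.148). The estimate was 2.36 without tumour 4. With tumours 1 and 6 left out, the libraries with salivary transcripts, it was 3.97 (adjusted p = 0.0245), and without these and gland 4 it was 3.89 (adjusted p = 0.0538). Beside it, 8 of 10 luminal epithelial markers were higher in tumours. Their summed level was highest in tumours 3 and 4, at 4084 and 3529 CPM. Tumour 2 came next at 3279 CPM, with Ier3 at only 11.0 CPM. The part of the luminal markers in the Ier3 difference was not tested.

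**Figure D2:**
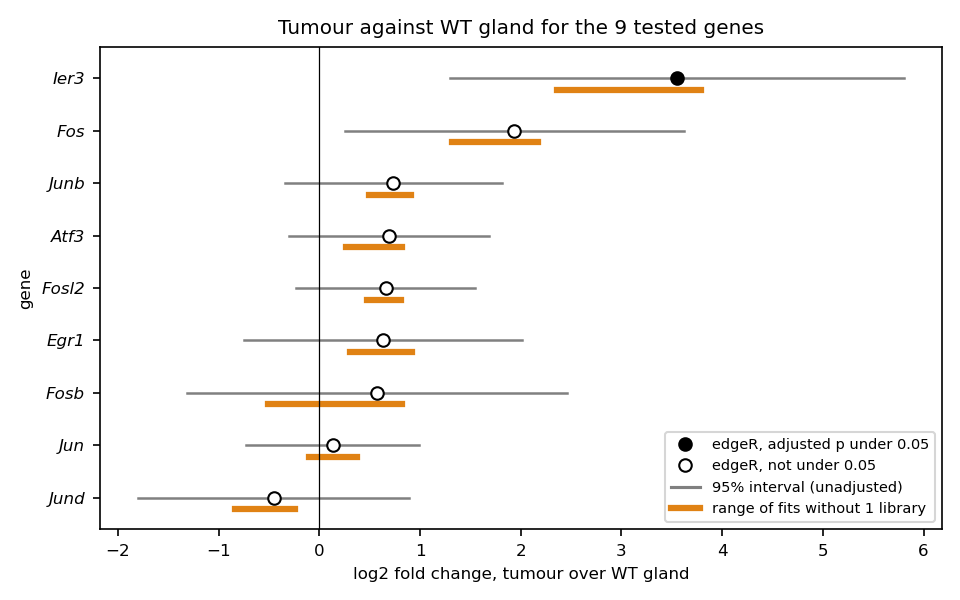
Log2 fold change of tumour over wild-type gland (horizontal axis) for the 9 tested genes, with a filled point for an adjusted p below 0.05, the unadjusted 95% interval in grey and the range over the 10 fits that each leave out 1 library in orange. Only Ier3, at 3.55, is filled, and the orange ranges of Jun and Fosb cross 0.

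The spread among tumours exceeded that among glands in each of the 9 tested genes, as the ratio of the highest to the lowest library. This ratio was 31.2 in tumours and 1.36 in glands for Ier3, 19.0 in tumours and 1.62 in glands for Fos, and 20.0 in tumours and 2.73 in glands for Fosb. It was smallest in tumours for Jun, at 3.09 in tumours and 2.18 in glands. With 6 tumours and 4 glands the larger group has more chance of extreme values, and the difference in spread was not tested. Tumour 6 had the highest tumour level of 6 genes (Jund, Fos, Fosb, Fosl1, Fosl2 and Atf3) and tumour 4 that of the other 4 (Jun, Junb, Egr1 and Ier3). Tumour 1 was lowest or joint lowest in 5 of the 10. Tumour 6 also had the highest summed levels of macrophage markers (3127 CPM, against 487 to 1404 CPM in the other tumours) and of fibroblast markers (7053 CPM, against 342 to 2050 CPM), beside its salivary transcripts, and their part in its high values was not tested.

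Levels between genes were compared per kilobase of the longest protein-coding transcript in GENCODE M21, an annotation of a later build than the mm9 build in the submitters' processing notes. In tumours the median order was Jund (53.6 CPM per kilobase), Junb (26.4), Ier3 (15.4), Jun (11.2), Fos (7.94), Egr1 (6.28), Fosl2 (5.36), Atf3 (2.43), Fosb (0.189) and Fosl1 (0.0133). The ranges of neighbours in this order overlapped except between Atf3 and Fosb. In glands it was Jund (103 CPM per kilobase), Junb (15.7), Jun (11.8), Egr1 (4.98), Ier3 (4.94), Fos (4.00), Fosl2 (3.27), Atf3 (1.89), Fosb (0.243) and Fosl1 (0.00837). Here Jund stood clear of Junb, and Fosl2, Atf3, Fosb and Fosl1 were each separate from the next, while the neighbours from Junb to Fosl2 overlapped. Ier3 was the third in tumours, against the fifth in glands, and Jund was at the top in both.

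Ratios of related genes within a library do not use the scaling factors between libraries. Where a gene has 0 counts, however, its ratio depends on the depth of the library, because 0.5 was added to each count. None of 6 ratios separated the groups. The Jun/Jund log2 ratio was -2.08, -1.49, 0.202, 0.896, -1.18 and -2.31 in tumours 1 to 6, against -1.69, -2.41, -2.64 and 0.019 in glands 1 to 4. Tumours 3 and 4 and gland 4 thus had at least as many counts on Jun as on Jund, and the other libraries had fewer. The mean Junb/Jund log2 ratio was -1.09 ± 1.47 in tumours and -2.27 ± 0.64 in glands, and that of Jun/Junb was 0.094 ± 0.84 in tumours and 0.59 ± 0.93 in glands (SD, n = 6 and 4). Within the Fos family, the Fosb/Fos log2 ratio averaged -4.50 ± 1.32 in tumours and -3.12 ± 0.64 in glands, and the Fosl2/Fos log2 ratio 0.69 ± 1.54 in tumours and 1.46 ± 0.42 in glands. The Fosl2/Fos value was below that of every gland in tumours 1, 2, 3, 4 and 6, and at 3.52 in tumour 5 it was above them all. The Fosl1/Fos log2 ratio averaged -8.58 ± 1.22 in tumours and -7.31 ± 1.07 in glands, but rests on at most 13 Fosl1 counts in a library. Fosl1 had 0 counts in tumours 1, 2 and 5 and in glands 3 and 4. In these libraries the value is set by the added 0.5 and the Fos count alone. The means of this ratio therefore cannot show whether Fosl1 differs relative to Fos between the groups.

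**Figure D3:**
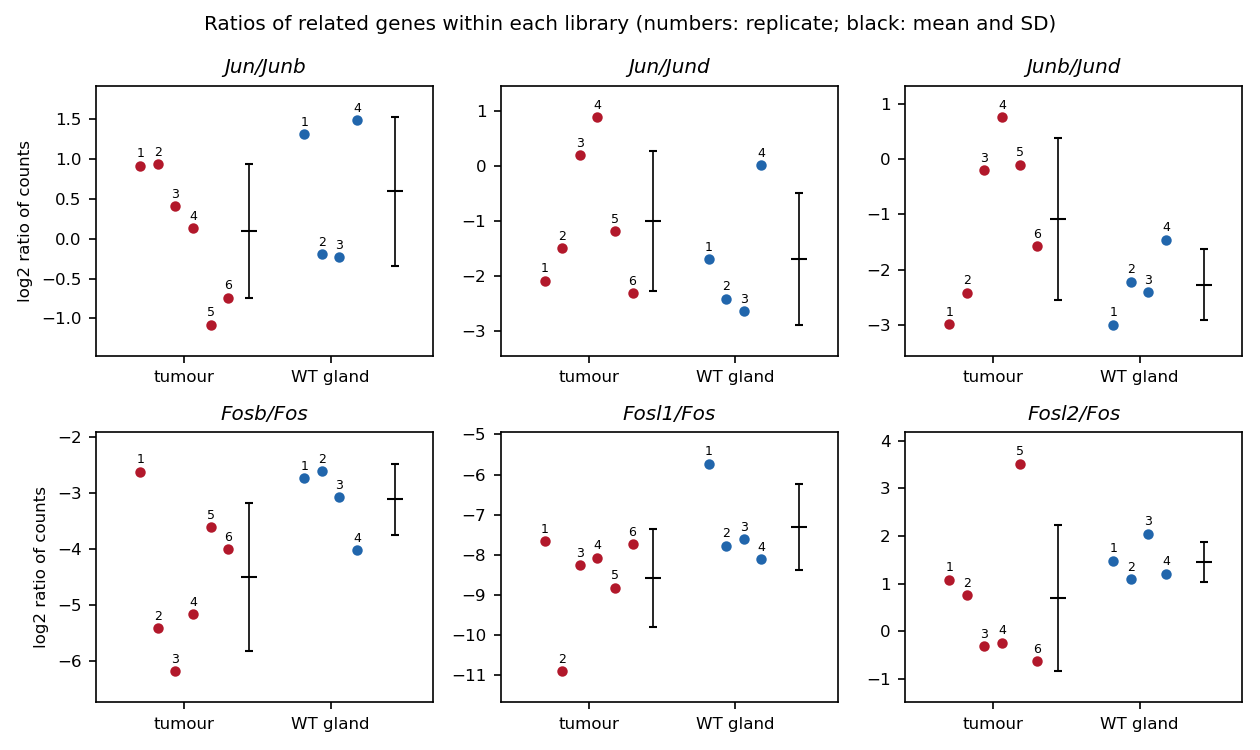
Log2 ratio of the counts of 2 related genes within each library (vertical axis, 0.5 added to each count) for 6 pairs, in 6 tumours (red) and 4 wild-type glands (blue), with replicate numbers and the mean and SD in black. The groups overlap in all 6 pairs, and tumour 5 stands apart in Fosl2/Fos at 3.52.

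Within the 6 tumours, 17 relations of Fos and of Jun with the other genes were computed on log2 CPM, with exact two-sided permutation tests over 720 pairings. None passed the adjustment over the 17. Pearson's r ran from 0.0927 to 0.965. The closest was Jun with Egr1, at r = 0.965 (exact permutation p = 0.00972, adjusted p = 0.0787) and Spearman's rho = 0.829 (exact permutation p = 0.0583, adjusted p = 0.331). Without tumours 2 and 4, the farthest from the median of Jun, r was 0.907. Fos with Atf3 had r = 0.742 (exact permutation p = 0.0139, adjusted p = 0.0787) and rho = 0.886 (exact permutation p = 0.0333, adjusted p = 0.283), and r = 0.821 without tumours 5 and 6. Fos with Fosl1 had r = 0.929 (exact permutation p = 0.00833, adjusted p = 0.0787) and rho = 0.941 (exact permutation p = 0.0167, adjusted p = 0.283), with 3 of 6 tumours at 0 counts of Fosl1. Genes of a library share its scaling, which moves such values together.

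Among 13816 named genes above a mean of 1 CPM, the patterns most like that of Ier3 over the 10 libraries were those of Tgfa (r = 0.972, rho = 0.976), an EGF receptor ligand, Epha2 (r = 0.971, rho = 0.939), an ephrin receptor, and D1Ertd622e (r = 0.962, rho = 0.867). For Fos they were Uhrf2 (r = 0.909, rho = 0.673), Arhgap28 (r = 0.881, rho = 0.952) and Trf (r = 0.872, rho = 0.855), the transferrin gene. For Jun they were Sppl2b (r = 0.907, rho = 0.867), Gfod2 (r = 0.870, rho = 0.855) and Fbxl15 (r = 0.867, rho = 0.842). These Pearson and Spearman values describe the 10 libraries, which include both groups, and each is the highest of many.

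Most other immediate early genes did not pass. Of 29 tested, 2 were higher and 1 lower in tumours, where 6.89% of all tested genes were higher and 8.19% lower, so the counts are no result about the list. At an unadjusted p below 0.05, 11 of the 29 were found, beside 33.4% of all tested genes, so this count too is no result about the list. The median log2 fold change of the 29 was 0.47. Ccn2, the connective tissue growth factor gene, was at 78.9 ± 48.6 CPM in tumours and 6.01 ± 1.31 CPM in glands (SD, n = 6 and 4). Its log2 fold change, 3.71 ± 0.65 (SE), was called (adjusted p = 0.00717, edgeR) and remained so in all 10 fits without 1 library. Trib1, a pseudokinase gene, was at 64.8 ± 46.1 CPM in tumours and 20.3 ± 6.37 CPM in glands (1.67 ± 0.51, adjusted p = 0.0489, edgeR). Dusp1, a phosphatase of MAP kinases, was at 9.13 ± 6.06 CPM in tumours and 27.2 ± 5.59 CPM in glands (-1.57 ± 0.48, adjusted p = 0.0478, edgeR). The calls of Trib1 and Dusp1 held in 2 and 1 of the 10 fits without 1 library, with adjusted p up to 0.126 and 0.116. Ier2, a relative of Ier3 in name and induction only, was at 41.4 ± 21.7 CPM in tumours and 22.1 ± 8.67 CPM in glands (adjusted p = 0.189, edgeR), and Egr2, a paralog of Egr1, at 3.90 ± 3.54 CPM in tumours and 7.34 ± 2.74 CPM in glands (adjusted p = 0.323, edgeR). Nr4a1 and Zfp36, a nuclear receptor and an mRNA decay factor of the same early wave, did not pass, at log2 fold changes of -0.22 ± 0.66 for Nr4a1 (adjusted p = 0.833, edgeR) and -0.61 ± 0.44 for Zfp36 (adjusted p = 0.335).

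Among 18 tested leucine zipper partners and inhibitors, 2 were lower and none higher in tumours (median log2 fold change -0.16), beside 8.19% lower and 6.89% higher over all tested genes, so the count is near the background. These were Atf5, at 29.4 ± 22.4 CPM in tumours and 136 ± 55.7 CPM in glands (-2.20 ± 0.62, adjusted p = 0.0377, edgeR), and Maf, at 48.2 ± 31.0 CPM in tumours and 164 ± 44.7 CPM in glands (-1.77 ± 0.53, adjusted p = 0.0450, edgeR). Both calls were lost under upper-quartile scaling and with age as a covariate, where the log2 fold changes were -1.97 and -1.92 for Atf5 and -1.58 and -1.75 for Maf. The Atf5 call held in 4 and the Maf call in 3 of the 10 fits without 1 library, with adjusted p up to 0.112 and 0.0951.

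Of 20 kinases and factors upstream of these genes, 3 were lower and none higher in tumours, with a median log2 fold change of -0.32. Over all tested genes 15.1% were called and 8.19% were lower, so the count is no result about the list. Srf, the serum response factor that drives Fos and Egr1 transcription, was at 11.7 ± 3.99 CPM in tumours and 31.7 ± 7.94 CPM in glands (-1.43 ± 0.32, adjusted p = 0.0163, edgeR), and this call held in all 10 fits without 1 library. Map2k7, a kinase of the JNK pathway that acts on Jun, was at 15.1 ± 4.01 CPM in tumours and 34.5 ± 5.14 CPM in glands (-1.19 ± 0.26, adjusted p = 0.0162, edgeR). Mapk14, the p38 alpha kinase gene, was at 32.4 ± 7.67 CPM in tumours and 70.6 ± 17.4 CPM in glands (-1.12 ± 0.26, adjusted p = 0.0200, edgeR). Map2k7 and Mapk14 were each called in 9 of the 10 fits without 1 library, the exception being the fit without gland 1 (adjusted p = 0.0564 and 0.0662). Beside these 3 differences, 12 of 13 adipocyte markers and 8 of 12 skeletal muscle markers were lower in tumours. The summed muscle level overlapped between the groups, at 2.94 to 1074 CPM in tumours and 60.3 to 145531 CPM in glands, with the highest value in gland 4. The part of these markers in the 3 differences was not tested.

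Of 17 tested genes reported as AP-1 targets in other tissues, 6 were higher and none lower in tumours, beside 6.89% higher and 8.19% lower over all tested genes, and the median log2 fold change was 0.56. The 8 of 10 luminal epithelial markers given above were higher in the same comparison, and their part in these differences was not tested. The matrix protein gene Spp1 was at 4019 ± 4612 CPM in tumours and 7.83 ± 3.65 CPM in glands (9.0 ± 1.67, adjusted p = 0.00879, edgeR). The collagenase gene Mmp13 was at 7.88 ± 6.32 CPM in tumours and 0.275 ± 0.0414 CPM in glands (4.84 ± 0.83, adjusted p = 0.00661, edgeR). Ccnd1, the cyclin D1 gene, was at 417 ± 249 CPM in tumours and 33.1 ± 2.59 CPM in glands (3.65 ± 0.57, adjusted p = 0.00457, edgeR). All 3 remained called whichever single library was removed. The list is general, its genes have many other regulators, and the median was -0.20 without tumour 6.

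Genes that act on Jun protein stability gave 1 call among 12, beside 15.1% called over all tested genes, so the count is no result about the list. Usp28, a deubiquitinase that counters Fbxw7, was at 6.79 ± 2.54 CPM in tumours and 20.3 ± 16.8 CPM in glands (-1.57 ± 0.48, adjusted p = 0.0477, edgeR), and -0.88 without gland 4 (adjusted p = 0.156). The call held in 2 of the 10 fits without 1 library. Fbxw7 was at 30.9 ± 10.4 CPM in tumours and 33.5 ± 33.4 CPM in glands (-0.12 ± 0.51, adjusted p = 0.888, edgeR), and 0.80 without gland 4. This total includes exons that excision would leave in place, and so does not check the genotype labels. Heat shock genes, which like early genes respond to the handling of tissue, gave no call among 11 in edgeR, beside 15.1% over all tested genes. At an unadjusted p below 0.05, 1 was found, beside 33.4%. DESeq2 and limma-voom each called 1, beside 21.2% and 15.3% of all genes. These counts are no result about the list. Their median was 0.30, and their summed level was 1399 to 5652 CPM in tumours and 1612 to 2538 CPM in glands, highest in tumours 3 and 2.

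**Figure D4:**
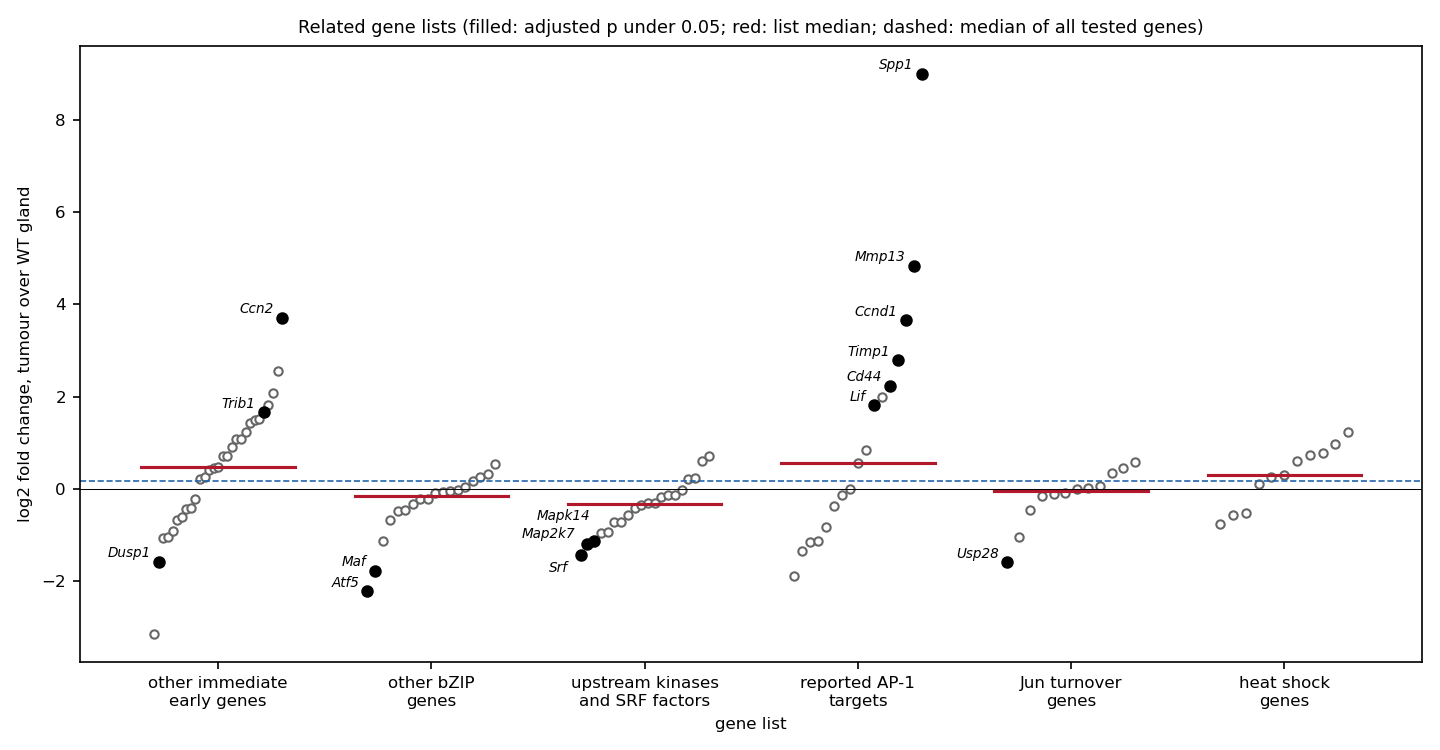
Log2 fold change of tumour over wild-type gland (vertical axis) for the tested genes of 6 related lists (horizontal axis), ordered within each list, with named filled points for an adjusted p below 0.05, a red line for the list's median and a dashed line for the median of all tested genes at 0.17. The upstream kinase and leucine zipper lists hold calls below 0 and the list of reported AP-1 targets holds calls above 0.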

How the data were processed

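RNA was taken with TRIzol from whole glands and tumours and made into NEBNext Ultra libraries of polyA RNA, per the labels. The authors deposited whole-number read counts per gene symbol, in 1 table with 10 libraries. Salmon 1.2.0, DESeq and the mm9 build appear in the submitters' processing notes, without a role for each. Rounded model estimates would divide reads between near-identical genes. Whether strands were counted apart is not stated.

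The test was run in edgeR 4.0.16 (R 4.3.3): filterByExpr (20101 of 38279 genes kept), TMM factors, quasi-likelihood F test, tumour against gland, no covariate, Benjamini-Hochberg threshold 0.05. TMM gave tumour 1 a factor of 0.422 and gland 4 one of 0.580. The SE is the log2 fold change over the square root of F. Ratios used 0.5 added to counts, and relations used log2 of CPM plus 0.1. The functions were tested on simulated data. Alternatives were DESeq2 1.42.0, limma-voom (limma 3.58.1), upper-quartile or RLE factors, no filter, at least 10 counts in every library of a group, age, library choices, and removal of salivary, muscle and mitochondrial genes.

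The members, the lists and the alternatives without tumours 1 and 6 were chosen with earlier results of these data known. Named genes were the 10 members, Fbxw7, up to 3 called genes of each list per direction, and the 3 genes most like Jun, Fos and Ier3. Further list members named with no call (Ier2, Egr2, Nr4a1 and Zfp36) and sequence motifs were chosen after values or sequences were seen. Promoter sequences are from RefSeq (GRCm38.p6). Depth is given as total counts, and arguments from 0 counts cover counting error only.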

Additional observations from a re-analysis of the deposited data

Results flagged for a closer look

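Single libraries lay far from the rest of their group in 8 of 32 sets of values examined (10 genes and 6 ratios in each group), by the gap to the nearest library over the range of the group. Chance flags about 1 in 20 such sets when values are independent and normally distributed. The sets here share genes and libraries and hold CPM on a linear scale, so this rate is only a rough guide.

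In tumours these were tumour 6 for Fosb (4.93 CPM, next 1.49) and for Atf3 (13.5 CPM, next 5.11), tumour 4 for Ier3 (235 CPM, next 80.7), and tumour 2 for the Fosl1/Fos log2 ratio (-10.9, next -8.82), which has 0 counts of Fosl1. In glands they were gland 4 for Jund (42.2 CPM, next 171), gland 3 for Fos (5.40 CPM, next 8.30), gland 2 for Egr1 (41.1 CPM, next 23.4) and gland 1 for Ier3 (4.17 CPM, next 5.59). The gland values of Fos and Ier3 lie in narrow ranges, so the gaps are small in CPM.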

How the results depend on the processing

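No paired analysis was possible, because tumours came from Cre-positive and glands from Cre-negative mice and the labels match no tumour with a gland. Over all genes, 5575 were called with DESeq2, 1855 with age as a covariate and 4640 without tumours 1 and 6 and gland 4, against 3030, and 1053 (without gland 1) to 3521 without 1 library, with further drops past 1.5 times without tumours 2 or 4 or glands 2 or 3. Of the 10 genes, 2 were called with DESeq2, 0 with limma-voom, 0 without tumours 1 and 6 and gland 4, and 0 to 1 without 1 library. Ier3 was not called with limma-voom (2.46) or without tumours 1 and 6 and gland 4 (3.89), and ranged from 2.36 to 3.79 without 1 library. Fos was called with DESeq2 alone (1.90). Jund changed sign with age as a covariate (0.027), and Jun without tumour 4 or gland 3 (-0.098 to 0.37 over all fits without 1 library). Fosb changed sign with limma-voom (-0.32), without tumours 1 and 6 (-0.67), without these and gland 4 (-0.94) and without tumour 6 (-0.51, to 0.82 without another library), and Fbxw7 under upper-quartile scaling (0.013), with limma-voom (0.33), without tumours 1 and 6 and gland 4 (0.72) and without tumour 3 or gland 4 (-0.37 to 0.80 over all such fits). The causes were not tested.

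Over all genes, DESeq2 called 5575 of 26276 (21.2%), no filter 2474 of 38279 and the stricter filter 2988 of 16201. Upper-quartile scaling called 3122 and limma-voom 3074 of 20101, and age as a covariate 1855 of 22896. The calls were 4255 of 19585 without tumours 1 and 6, and 4640 of 21000 without these and gland 4. The list counts that follow stand beside these totals and are no result about the lists. Calls among other immediate early genes numbered 8 with DESeq2, 1 with no filter and 1 (without tumour 2 or any gland) to 4 without 1 library, against 3. Leucine zipper partners had 0 under upper-quartile scaling or with age and 0 (without tumour 2, 4 or 5 or gland 1, 2 or 3) to 3 without 1 library, against 2, and upstream genes 1 (without gland 1) to 4, against 3. Jun turnover genes had 0 under upper-quartile scaling, with no filter or with age, 2 with DESeq2 or without tumours 1 and 6 and gland 4, and 0 (without tumour 1, 2, 4 or 5 or gland 1, 2 or 4) to 1 without 1 library, against 1. Heat shock genes had 1 under upper-quartile scaling, DESeq2, limma-voom, the stricter filter and both choices without tumours 1 and 6, and 0 to 1 (without tumour 1) without 1 library, against 0. The upstream median was -0.17 under upper-quartile scaling, -0.56 without tumours 1 and 6, -0.65 without these and gland 4 and -0.46 (without tumour 6) to -0.29 without 1 library. That of reported AP-1 targets was -0.19 with limma-voom, 1.30 with no filter, 1.38 with age, -0.014 without tumours 1 and 6, -0.32 without tumours 1 and 6 and gland 4 and -0.20 (without tumour 6) to 1.00 without 1 library. Upper-quartile scaling set the median of all genes at 0.32, against 0.17. In tumours, the r of Fos with Jund was -0.526 and that of Jun with Ier3 was -0.203 without the 2 outermost tumours, and Jun with Egr1 passed with no TMM factor (r = 0.976). Every other member estimate kept its sign and side of the threshold in all alternatives, and no group difference in a ratio moved by more than 1 SD between libraries. Depth limits Fosl1, at 33 counts in all libraries.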
